A study of Homo sapiens with 3 samples.

Results

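Filamins, alpha-actinins and focal adhesion linkers are the proteins that crosslink actin filaments and tie them to integrins at the cell's contacts with its substrate. The 9 genes described here, FLNA, FLNC, ACTN1, ACTN4, TLN1, TLN2, VCL, ZYX and PXN, were chosen by name from the 60880 gene rows of 1 RNA-seq library, and all 9 had a row. Earlier results of these data were known when they were chosen. The group was taken up because FLNA had the second highest count of the library, so the rank of FLNA is how the group was chosen and not a finding. FLNA had 220989 counts, against 286021 for MT-CO1, the gene just above it, and 216738 for ACTB, the gene just below it.

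Filamins are long dimers that crosslink actin filaments into loose networks and also bind the tails of integrins, whereas alpha-actinins are antiparallel rods that bundle filaments. Talin binds integrin tails directly, switches integrins to their active state and carries the first connection to actin, and vinculin binds stretched talin and strengthens that connection. Zyxin and paxillin are scaffolds with LIM domains: zyxin brings Ena/VASP proteins to strained actin, and paxillin gathers focal adhesion kinase and its partners. In epithelial tumour cells these proteins are known for their part in spreading, migration and the sensing of stiffness.

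The library came from wild-type NCI-H1975 cells, an established human lung adenocarcinoma line, and is replicate 2 of its RNA-seq. The study set such cells against a derivative resistant to anlotinib, an inhibitor of several receptor tyrosine kinases, and knocked down the transcription factor TFAP2A in the resistant cells. The wild-type cells carried no knockdown, and no drug treatment is given for them in the labels. The resistant and knockdown cells and the 2 wild-type ATAC-seq samples were not analysed here. With 1 library there was no replicate spread, no test was made, and every interval below is a 95% interval that covers counting error only.

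The library held 25012733 counts, of which 1 count equalled 0.04 CPM (counts per 1000000 counts of the library). For a gene at 0, a limit of 3 counts was taken, which is 0.12 CPM. All 7 epithelial markers had at least 10 counts, as did 69.7% of protein-coding genes. They ran from NKX2-1 with 2926 counts to KRT7 with 132533, KRT8 with 65584 and KRT19 with 48349. Gene lengths were not used, so every ratio between genes below is a ratio of read numbers and not of molecules.

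FLNA and ACTN1 were the members with a promoter match to the CArG box, the site bound by serum response factor (SRF), which is known to drive many genes of the actin cytoskeleton. Their promoters are shown for that reason, as the 250 bases before an annotated RefSeq start (GRCh38.p14), 5′ to 3′ on the gene's strand, with the CArG box in capitals. FLNA has 1 annotated start window and ACTN1 has 4, of which the third in the table is printed. The FLNA stretch lies at chrX:154374635-154374884 on the minus strand and the ACTN1 stretch at chr14:68977567-68977816 on the minus strand.
FLNA: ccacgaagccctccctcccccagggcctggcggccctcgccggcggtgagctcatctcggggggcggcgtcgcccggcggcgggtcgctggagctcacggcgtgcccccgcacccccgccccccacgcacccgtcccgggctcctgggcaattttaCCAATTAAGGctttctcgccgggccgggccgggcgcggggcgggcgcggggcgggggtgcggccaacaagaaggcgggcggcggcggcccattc
ACTN1: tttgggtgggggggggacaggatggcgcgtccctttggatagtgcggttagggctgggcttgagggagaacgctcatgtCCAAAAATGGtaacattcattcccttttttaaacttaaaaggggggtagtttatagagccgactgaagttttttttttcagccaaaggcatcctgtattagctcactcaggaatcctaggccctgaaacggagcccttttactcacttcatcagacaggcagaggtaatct

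The CArG box began 94 bases before the FLNA start and 171 bases before that ACTN1 start. The motif was searched in windows of 300 bases, 250 before to 50 after each start, on both strands, and was held by 1.29% of all 35116 RefSeq windows and by 2 of the 12 windows examined for the members. It did not overlap any other motif searched. The counts cannot say which ACTN1 start was used, because reads were summed per gene.

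A second motif was searched because the study concerns TFAP2A: GCCNNNGGC, a palindromic sequence recognised by AP-2 factors. It was present in 5 of the 12 member windows, and in 23.2% of all windows. Of the 8 members whose windows were examined, 5 had it in at least 1 window, namely FLNC, ACTN1, TLN1, TLN2 and ZYX. It was not in the windows of FLNA, ACTN4 and VCL. The share of all genes with a match in at least 1 window was not computed, so the count of 5 of 8 members has no background beside it. The matches are printed with up to 10 bases on each side and the motif in capitals, to show which bases fill its middle. The 2 matches in ZYX overlap each other, and none of those printed overlaps another motif searched.
FLNC, chr7:128830331-128830359, plus strand: ggacccggggGCCGCGGGCgcggcggggg
ACTN1, chr14:68977639-68977667, minus strand: ttttttttcaGCCAAAGGCatcctgtatt
TLN1, chr9:35732206-35732234, minus strand: tagagcgcggGCCCAGGGCgccgcccgcg
TLN2, chr15:62390527-62390555, plus strand: gctcgcgctcGCCCTCGGCtcttgttccg
TLN2, chr15:62390554-62390582, plus strand: cgcgcccggaGCCAGCGGCggcggcagcg
ZYX, chr7:143381134-143381162, plus strand: cctcggcggaGCCTCCGGCctgaggcagg
ZYX, chr7:143381141-143381169, plus strand: ggagcctccgGCCTGAGGCaggatcaggg

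Most member windows were rich in G and C, with 9 of the 12 above the median of 58.7% over all RefSeq windows. FLNC was highest at 83.3% and FLNA had 78.3%. The 3 windows below that median were later windows of their genes: the third of ACTN1, printed above, at 49.3%, the fourth of ACTN1 at 55.3% and the second of ACTN4 at 56.7%. GGGCGG, the core of sites for SP1-type factors, was in 8 of the 12 windows and in 45.0% of all windows. By gene it was in 7 of the 8 members examined, all but TLN2, and no share over all genes was computed. GGAATG, bound by TEAD factors, was in 3 of the 12 windows and in 14.0% of all windows. TGANTCA, bound by AP-1, was in 1 window, the first of ACTN4, and in 7.71% of all windows. TATAAA was in 1 window, the third of ACTN1, and in 11.5% of all windows. All were searched on both strands, and a match is a run of letters and not a measured binding site.

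All 9 members were detected, that is, had at least 10 counts, as did 69.7% of protein-coding genes. That share is the one to set beside every count of detected genes below. Of the 9, 7 reached 100 CPM, as did 11.1% of protein-coding genes, and FLNC and TLN2 did not. The median of the 9 was 501 CPM, the level of ZYX, against 9.83 CPM over all 19056 protein-coding genes with a row. Those genes do not include the mitochondrial genes. The members and the lists below were chosen with earlier results of these data known. Such contrasts with all protein-coding genes are therefore descriptions and not tests. The 9 genes together held 317596 counts, or 1.27% of the library (1.265 to 1.274). FLNA alone was 69.6% of that sum (69.4 to 69.7), which follows in part from the choice of the group by its count. The other 8 members held 96607 counts, or 0.386% of the library (0.384 to 0.389). In a bulk library such as this, fewer cells that express a gene and less RNA per cell cannot be told apart.

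**Figure D1:**
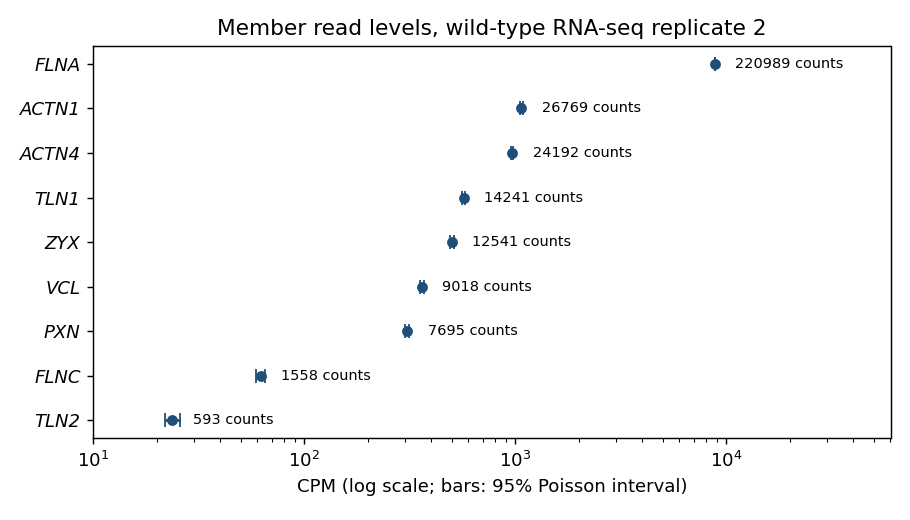
Read level of each of the 9 genes in CPM (log axis), with 95% Poisson intervals and the count beside each point. FLNA lies apart at 8835 CPM, 6 genes lie between 308 and 1070.2 CPM, and FLNC and TLN2 lie lowest at 62.3 and 23.7 CPM.

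Among the crosslinkers, filamin A carried most of the reads. FLNA (identifier ENSG00000196924.15_3), the filamin found in most non-muscle cells, had 220989 counts, or 8835 CPM (8798 to 8872) and 0.884% of the library. Mitochondrial genes left aside, this was the highest count of any protein-coding gene, and it is the value by which the group was chosen. FLNC (ENSG00000128591.15_3), the filamin best known from striated muscle, where it sits at Z-discs, had 1558 counts, or 62.3 CPM (59.2 to 65.5), above 81.5% of protein-coding genes.

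The reads of these filamins were therefore split very unevenly, and FLNA had 142 times the reads of FLNC (135 to 149). Filamins A and C are of similar length as proteins, but the lengths of their transcripts were not used, and how reads common to several filamin genes were counted is not known.

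FLNC was read in a library with few reads from muscle markers. Of 10 such markers 6 were detected, against 69.7% of all protein-coding genes. The 10 summed to 232 counts, and their median was 0.64 CPM. SYNPO2, TTN and MYH11 were highest with 52, 51 and 48 counts, and DES, the muscle intermediate filament, had 22. MYH7, the slow myosin heavy chain, was at 0, MYOT had 1 count and ACTN2 had 3.

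The alpha-actinins, in contrast to the filamins, were shared nearly evenly between a pair of genes. ACTN1 (ENSG00000072110.13_4), found in stress fibres and adhesions, had 26769 counts, or 1070.2 CPM (1057 to 1083). ACTN4 (ENSG00000130402.11_4), which is linked to cell motility and also occurs in the nucleus, had 24192 counts, or 967 CPM (955 to 979). The ratio of ACTN1 to ACTN4 reads was 1.11 (1.09 to 1.13), so their intervals did not overlap, but no replicate says whether the order would hold. ACTN2 and ACTN3, the alpha-actinins of striated muscle, had 3 and 5 counts, and ACTN1 and ACTN4 made up 52.5% and 47.5% of the family. ACTN1 and ACTN4 are alike in sequence, and reads common to both could have been split or dropped.

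**Figure D2:**
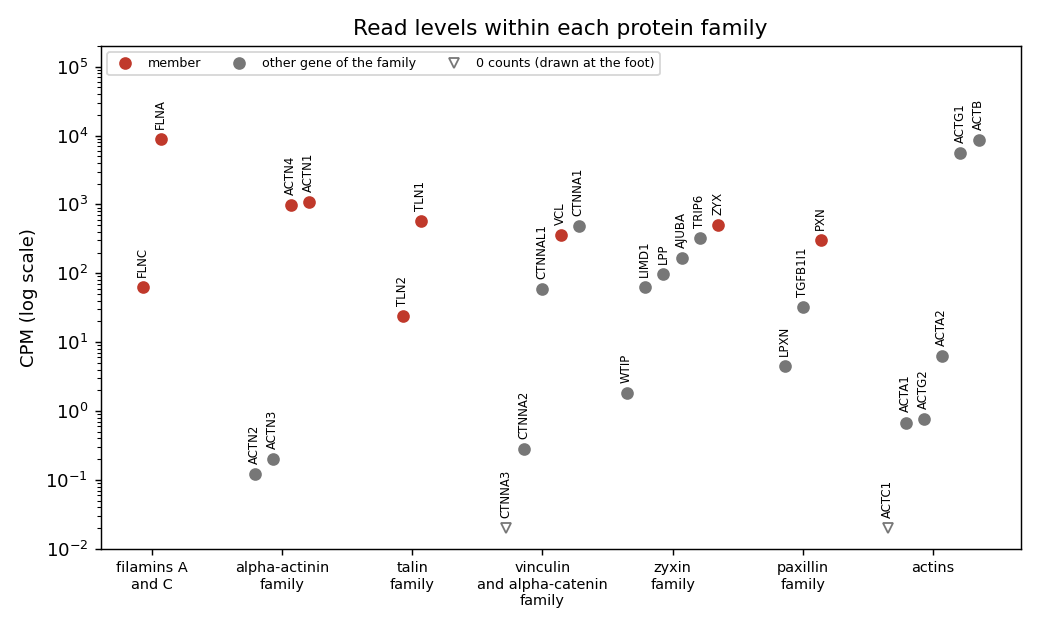
Read level in CPM (log axis) of the genes shown from 7 protein families, with the 9 members in red, other genes in grey and genes with 0 counts as open triangles at the foot. FLNA stands 142 times above FLNC in reads and TLN1 24.0 times above TLN2, whereas ACTN1 and ACTN4 lie side by side.

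Most of the other listed genes that crosslink or bundle actin, or tie it to membranes, were also strongly read. Of 11 listed, 10 were detected, against 69.7% of all protein-coding genes, and 8 reached 100 CPM, against 11.1% of them. The median was 326 CPM over all 11. FSCN1, which bundles filaments in filopodia, had 27325 counts, or 1092 CPM, the spectrin SPTBN1 had 19566 counts and moesin (MSN) had 18890 counts. VIL1, the bundler of intestinal microvilli, had 9 counts and was the member under the minimum. Of the members, only FLNA, picked for its count, had more reads than FSCN1, the highest of the 11, and ACTN1 had slightly fewer.

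Of the actins, ACTB was read at a level close to that of FLNA, which was picked for its count. The 6 actins together held 355986 counts, or 1.42% of the library, against 0.884% for FLNA. ACTB and ACTG1, the cytoplasmic actins, had 216738 and 139053 counts, and share so much sequence that their separate values are uncertain. The ratio of FLNA to ACTB reads was 1.02 (1.014 to 1.026). The muscle actins ACTA2, ACTG2 and ACTA1 had 159, 19 and 17 counts, and ACTC1 was at 0. Of the 6 actins 5 were detected, against 69.7% of all protein-coding genes.

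The non-muscle myosin II genes, whose motors pull on filaments that alpha-actinin crosslinks, were all detected, 7 of 7, with a median of 145 CPM. MYH9, the heavy chain of myosin IIA, had 96748 counts, or 3868 CPM, the light chain MYL6 had 14803 counts and MYL12B had 3694 counts. FLNA, picked for its count, had 2.28 times the reads of MYH9 (2.27 to 2.302).

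Genes that bind or regulate filamin were read below FLNA, which follows from the choice of the group by the count of FLNA. Of 10 listed, 9 were detected, against 69.7% of all protein-coding genes, with a median of 27.3 CPM. INPPL1, the lipid phosphatase SHIP2, had 5717 counts, SVIL, which codes for supervillin, had 3605 counts and the GTPase RALA had 1463 counts. ASB2, part of an E3 ubiquitin ligase that targets filamins for degradation, had 27 counts. The refilins RFLNB and RFLNA had 74 and 16 counts, and FILIP1 was at 0. FBLIM1, or migfilin, which binds filamin at adhesions, had 1040 counts.

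The link from integrins to actin was represented by talin 1 and vinculin. TLN1 (ENSG00000137076.20_3), the widely expressed talin, had 14241 counts, or 569 CPM (560.0 to 579), above 99.1% of protein-coding genes. TLN2 (ENSG00000171914.16_3), the talin most abundant in heart, skeletal muscle and brain, had 593 counts, or 23.7 CPM (21.8 to 25.7), above 63.2% of protein-coding genes. TLN2 was the lowest of the 9 and was near the median of detected protein-coding genes, 660 counts.

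TLN1 held 96.0% of talin reads (95.7 to 96.3) and had 24.0 times the reads of TLN2 (22.1 to 26.1). The talins are of nearly the same length as proteins. VCL (ENSG00000035403.17_3) had 9018 counts, or 361 CPM (353 to 368), so TLN1 had 1.58 times its reads (1.54 to 1.62). RefSeq annotates AP3M1, with 1097 counts, across part of the VCL span, and the sources used here do not say how reads in overlapping genes were counted.

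The relatives of vinculin are the alpha-catenins, which tie cadherins rather than integrins to actin. CTNNA1, the epithelial alpha-catenin, had 12217 counts, or 488 CPM, and the ratio of VCL to CTNNA1 reads was 0.738 (0.718 to 0.759). CTNNAL1, a divergent relative, had 1455 counts. CTNNA2, the neural form, had 7 counts, and CTNNA3, the form of heart and testis, was at 0. Of the 5 genes 3 were detected, against 69.7% of all protein-coding genes.

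Activators and partners of talin varied over a wide range. Of 11 listed, 9 were detected, against 69.7% of all protein-coding genes, with a median of 19.5 CPM. KANK2, which binds talin at the rim of adhesions, had 5237 counts, PIP5K1C, which makes the phosphoinositide that talin binds, had 3046 counts, and FERMT1, the epithelial kindlin, had 1469 counts. Kindlins act with talin on integrin tails. APBB1IP, or RIAM, which recruits talin to the membrane in leukocytes, had 1 count, as did KANK4.

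The complex of integrin-linked kinase, PINCH and parvin also sits between integrins and actin. It had 6 of 7 genes detected, against 69.7% of all protein-coding genes, and a median of 34.9 CPM. ILK had 3055 counts, LIMS1 had 1231 and RSU1 had 1211, while PARVG, the parvin of blood cells, had 7. All 4 tensins, which bind integrin tails in more mature adhesions, were detected with a median of 39.4 CPM, led by TNS3 with 8271 counts, TNS2 with 1387 and TNS4 with 585. TNS3 thus had fewer reads than VCL and more than PXN.

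Zyxin and paxillin were the LIM-domain scaffolds of the group. ZYX (ENSG00000159840.15_4) had 12541 counts, or 501 CPM (493 to 510.2), above 98.8% of protein-coding genes. PXN (ENSG00000089159.16_4) had 7695 counts, or 308 CPM (301 to 315), above 97.5% of them. ZYX stood between TLN1 and VCL: the ratio of TLN1 to ZYX reads was 1.14 (1.11 to 1.16), that of ZYX to VCL was 1.39 (1.353 to 1.43), and that of VCL to PXN was 1.17 (1.14 to 1.21).

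In the zyxin family the reads were spread over several genes. ZYX held 43.6% of them (43.0 to 44.2), TRIP6 27.9%, AJUBA 14.5%, LPP 8.41%, LIMD1 5.46% and WTIP 0.16%. ZYX had 1.56 times the reads of TRIP6 (1.52 to 1.61), an adhesion protein with similar LIM domains, and 3.01 times those of AJUBA (2.90 to 3.12). All 6 genes were detected. The Ena/VASP proteins that zyxin recruits to promote filament growth were also all detected, 3 of 3 with a median of 72.6 CPM: ENAH had 6566 counts, EVL had 1817 and VASP had 957.

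In the paxillin family 1 gene held most reads. PXN had 89.4% of them (88.7 to 90.05), TGFB1I1, or HIC-5, had 801 counts and 9.31%, and LPXN, the leukocyte-enriched leupaxin, had 111 counts and 1.29%. PXN had 9.61 times the reads of TGFB1I1 (8.93 to 10.3). PXN-AS1, annotated across PXN, had 270 counts.

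Kinases and adaptors that act at adhesions, many of which assemble on paxillin, were all detected, 17 of 17, against 69.7% of all protein-coding genes. Their median was 78.4 CPM. BCAR1, the adaptor p130Cas, had 8518 counts, or 341 CPM, which is more reads than PXN itself. The GIT1 scaffold, which binds paxillin, had 3472 counts, and the kinase PAK2 had 3311. Focal adhesion kinase (PTK2) had 1399 counts and its relative PTK2B had 1485, so the kinase that paxillin anchors had fewer reads than each of VCL, ZYX and PXN. PTK2 and PTK2B were added after their counts were seen.

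**Figure D3:**
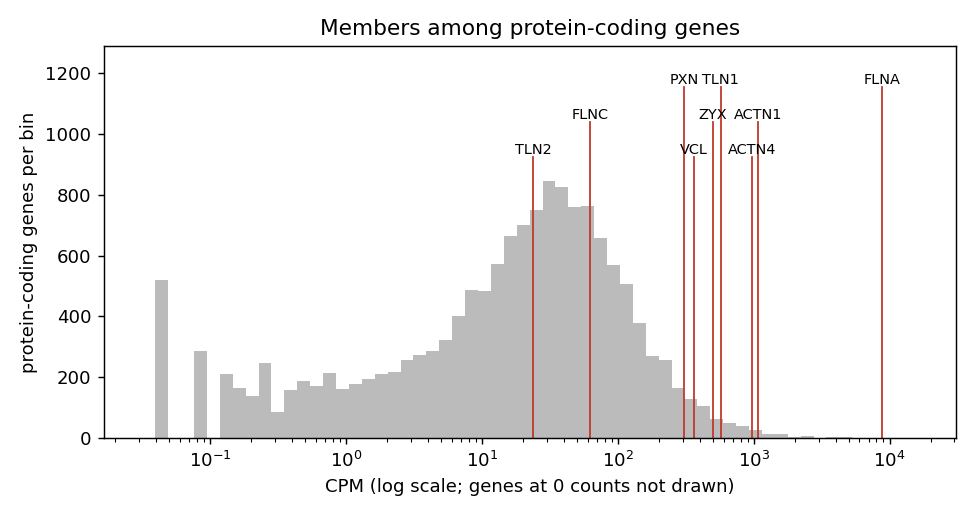
Number of protein-coding genes per bin of read level in CPM (log axis), with red lines at the 9 genes. TLN2 at 23.7 CPM and FLNC at 62.3 CPM lie within the bulk of the genes, and the other 7 lie in its upper tail, up to FLNA at 8835 CPM.

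Serum response factor and its actin-sensing co-factors, which were read because of the CArG box in the FLNA and ACTN1 promoters, were all detected. SRF had 2289 counts, or 91.5 CPM, MRTFA had 1971 counts and MRTFB had 1670 counts. Their median was 78.8 CPM. In 1 library these levels cannot be related to those of the members.

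Markers of other cells that use these proteins were low for most genes. Of 7 fibroblast markers 2 were detected, against 69.7% of all protein-coding genes. These were COL1A2 with 4104 counts and PDGFRB with 150, while DCN, LUM, PDGFRA and THY1 were at 0 and COL3A1 had 2 counts. Of 8 leukocyte and platelet markers 2 were detected, ITGB3 with 518 counts and ITGA2B with 249, and PF4 and GP9, which are specific to platelets and their precursors, were at 0. PTPRC had 2 counts, and CD3E, LYZ and TYROBP had 1 each. Platelets and fibroblasts are rich in filamin A and talin 1. The fibroblast list summed to 4256 counts and the leukocyte and platelet list to 772, in a library from an established lung adenocarcinoma line. Sums of marker counts do not measure a share of cells. Any relation of these markers to the levels of the members was not tested.

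**Figure D4:**
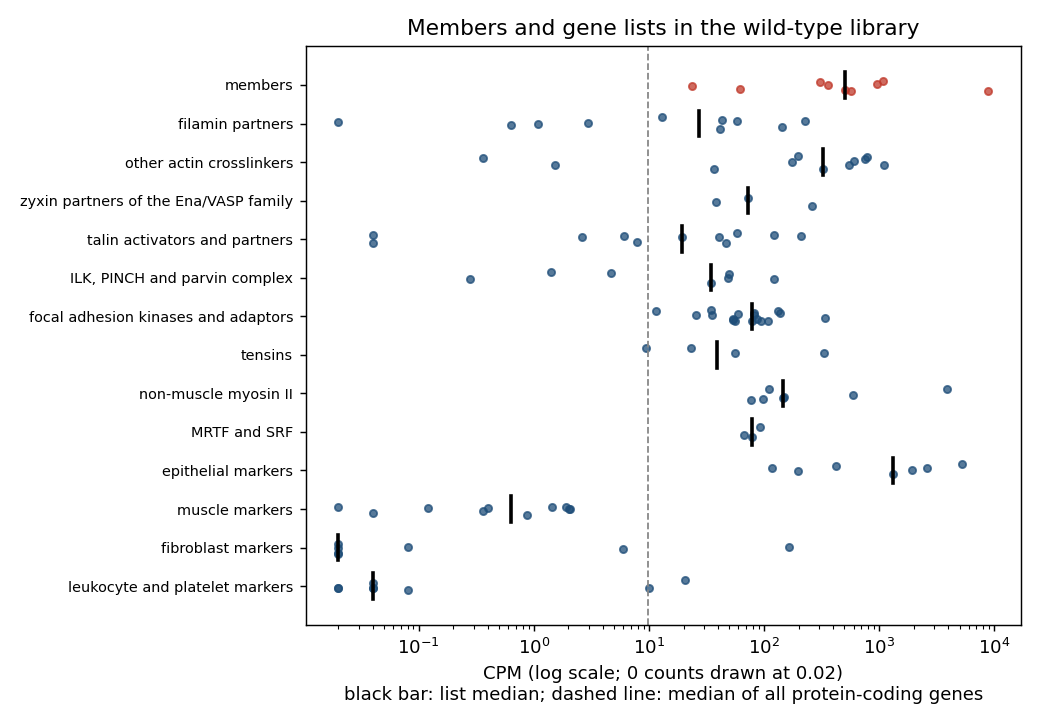
Read level in CPM (log axis) of each gene of the 9 members and of 13 gene lists, with a black bar at each list's median, genes with 0 counts at the left edge and a dashed line at the 9.83 CPM median of all protein-coding genes. The members have a median of 501 CPM, the epithelial markers one of 1332 CPM, and the muscle markers one of 0.64 CPM.

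Ordered by number of reads, the members ran from FLNA through ACTN1, ACTN4, TLN1, ZYX, VCL, PXN and FLNC to TLN2. No 2 neighbours in that order had overlapping intervals, and FLNA had 373 times the reads of TLN2 (344 to 405). FLNA was picked for its count, so its top place and the gap below it follow in part from that choice. The step from FLNA to ACTN1 was 8.26 times (8.15 to 8.36) and that from PXN to FLNC was 4.94 times (4.68 to 5.22). The other steps were 1.70 times or less, apart from that of FLNC to TLN2 at 2.63 times (2.39 to 2.89). Longer transcripts give more reads per molecule, and filamins and talins are far longer proteins than zyxin and paxillin, so this is an order of reads alone.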

How the data were processed

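RNA was extracted with Trizol and made into a directional library with an NEBNext kit, per the labels' protocols. The authors deposited raw whole-number counts per gene, not normalised, with Ensembl identifiers. The aligner STAR, the counter featureCounts and the build hg19 are among the names in the submitters' processing notes, which assign them no role. The sources used here do not give the annotation release, strand setting or treatment of shared reads.

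Identifiers were matched without version to a symbol table: 56373 of 60880 rows matched, with 99.8% of counts. The 41 rows of pseudoautosomal Y copies held 0 counts and were given no symbol. Gene type, overlapping genes and promoters came from RefSeq (GRCh38.p14), and all 9 members matched; promoter windows were examined for 8 of them, without PXN. A related gene and a promoter stretch are not reported here. CPM divides by the total of 25012733 counts. Intervals at 95% are exact: Garwood for levels, Clopper-Pearson for shares, conditional for ratios. They cover counting error only, and reached 8.14% of the level to either side for TLN2 and 0.417% for FLNA.

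A design per coding length could not be applied because no protein or transcript lengths were used here, so read ratios are given. The 9 members and 20 lists were chosen with earlier results of these data known. Named were all members, their families and the actins, the 3 highest genes of each other list and up to 3 of its genes under 10 counts, and the neighbours of FLNA. Other names (NKX2-1, the remaining fibroblast, leukocyte and platelet markers under 10 counts, DES, MYOT, ACTN2, FBLIM1, ASB2, RFLNA, RFLNB, PTK2, PTK2B, AP3M1, PXN-AS1) were added after their counts were seen. Alternatives were other totals, minima of 1 or 50 counts or 1 CPM, thinning to 50%, and rankings among genes of every type. The intervals were tested on simulated data. Tables were handled in pandas 2.3.3 under Python 3.11.15, intervals came from SciPy 1.17.1 with NumPy 2.4.6, and plots from Matplotlib 3.10.9.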

Additional observations from a re-analysis of the deposited data

How the results depend on the processing

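Counts of detected members (9) were the same at minima of 1 count, 50 counts and 1 CPM and after thinning to 50%. The lowest member, TLN2, had 593 counts, or 23.7 CPM, so these settings could not have changed that number. All 20 read ratios stayed inside their intervals after thinning, which by construction leaves their expected values alone. Totals without mitochondrial genes, without the 10 genes with the highest counts or over protein-coding genes only multiplied every CPM by 1.06, 1.08 and 1.09. The median of the 9 members then became 530 CPM, 540 CPM and 546 CPM. Their share became 1.34%, 0.416% and 1.38%, the second without FLNA, which is one of the 10 genes. Detected genes in lists stayed within 1.5 times in 18 of 20 lists at 1 count, 18 at 50 counts and 19 at 1 CPM. The exceptions were alpha-actinins (4) and leukocyte and platelet markers (6) at 1 count, actins (3) and muscle markers (2) at 50 counts, and actins (3) at 1 CPM. Medians over detected genes only became 1019 CPM for alpha-actinins, 361 for vinculin and alpha-catenins, 41.6 for filamin partners, 6.36 for actins, 436 for other crosslinkers, 40.3 for talin partners, 41.7 for the ILK complex, 1.68 for muscle, 85.0 for fibroblast and 15.3 for leukocyte and platelet markers, since low genes are left out. Among detected genes of every type, the lowest member, TLN2, lay above 59.7% of genes. Values per coding length were not run. No paired analysis was possible because no second library was analysed here. The depth of 1 library limits the precision of FLNC and TLN2 most, and without a replicate no spread between cultures is known.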

Other observations

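Transcripts annotated across or beside the 9 genes, chosen after their counts were seen, were mostly scarce. FLNC-AS1 had 4 counts, or 0.257% of the FLNC count, and PXN-AS1 had 270 counts, or 3.51% of the PXN count. CAPN12, annotated across part of ACTN4, had 94 counts and FAM131B, across part of ZYX, had 27. AP3M1 had 1097 counts, or 12.2% of the VCL count, the highest share among the overlapping genes with a row. The pseudogenes ACTN4P1, ACTN4P2 and ZYXP1 had 2, 0 and 0 counts.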
